A study of Mus musculus with 10 samples.

Results

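Voltage-gated calcium and sodium channels are built from a pore-forming alpha subunit and smaller subunits that set its place in the membrane and its gating. Their genes were taken as those with mouse symbols of the Cacna1, Cacna2d and Cacnb series for calcium channels and of the Scn alpha and beta series for sodium channels, after gene identifiers had been mapped to symbols without their version. Of 56884 genes in the count table, 32 were found, 18 for calcium and 14 for sodium channels. Enough reads for a test were present for 28 of them, 17 and 11.

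Hippocampal RNA was sequenced from 10 female mice of the P301S line, also called PS19. All carried the transgene Tg(Prnp-MAPT*P301S)PS19Vle for human Tau with the P301S mutation, on the B6;C3 background, and all had their ovaries in place. At 6 months of age, 5 mice received a SILASTIC tubing with 10 mm of DHT powder (dihydrotestosterone, an androgen that aromatase does not turn into estrogen) and 5 received a void implant, each for 12 weeks. Tissue was taken at 9 to 9.5 months, with 1 library per mouse. The transgene is driven by the mouse Prnp promoter and not by the Mapt promoter, no mice without the transgene are compared here, and the comparison asks which genes differ with added androgen in tauopathy.

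In neurons, sodium channels carry the upstroke of the action potential, and calcium channels turn depolarization into calcium entry for transmitter release, burst firing and signals to the nucleus. The alpha2delta subunits promote the traffic of calcium channels to the surface and to presynaptic sites, and the cytoplasmic beta subunits promote surface expression and tune gating. Sodium channel beta subunits adjust gating and also act in cell adhesion.

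Void-treated mice had total counts of 27188854 to 47113661 (median 32844884). DHT-treated mice had total counts of 33523527 to 45947784 (median 36379142). Levels are given as CPM, counts per 1000000 reads counted after scaling of the libraries by edgeR's TMM method, and are compared between genes only as CPM per kb of exon. Values per mouse are listed in the order of void replicates 4, 5, 9, 10 and 11 and of DHT replicates 1, 2, 3, 5 and 6. Differences were tested with edgeR's quasi-likelihood test over all 17622 genes with enough counts, with Benjamini-Hochberg adjustment over all of them, and fold changes are DHT against void on the log2 scale.

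The tissue label was compared with marker genes. All 8 markers of hippocampal subfields were detected, and their summed level was 1380, 978, 1440, 1450 and 1510 CPM in the void-treated mice and 1590, 1300, 1220, 1260 and 1430 CPM in the DHT-treated mice. Void replicate 5 was therefore the lowest of all 10 mice for these markers, and the other 9 mice overlapped between groups. The most abundant gene of the list was Zbtb20. Markers of neighbouring regions were detected at lower levels. The 5 striatal markers, with Rgs9 the most abundant, summed to 24.6, 46.9, 27.9, 30.2 and 34.1 CPM with void and 27, 24.1, 31.3, 25.6 and 35.1 CPM with DHT, with void replicate 5 the highest of the 10 mice. The 4 thalamic markers, with Prkcd the most abundant, summed to 78, 77.7, 71, 96.2 and 79.2 CPM with void and 94.2, 77, 79.6, 71 and 102 CPM with DHT, with DHT replicate 6 the highest. Their part in the channel values of these mice was not tested.

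Some libraries stood apart for the channel genes. Among the 28 tested genes, void replicate 5 was the lowest of its group for 17, and DHT replicate 6 was the highest of its group for 15. For the calcium channel alpha1 genes the share was larger, with void replicate 5 the lowest for 8 of 9 and DHT replicate 6 the highest for 8 of 9.

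At an adjusted p under 0.05, edgeR's quasi-likelihood test called 0 of the 28 genes higher and 0 lower with DHT. Of all genes tested, 5.22% were called higher and 0.261% lower. At an unadjusted p under 0.05 the counts were 0 higher and 5 lower, against 13.1% and 4.22% of all genes. The lower count was 0 when libraries were scaled by neuron markers. It ranged from 3 without void replicate 4 to 9 without void replicate 5 when 1 mouse was left out. The share of all genes at that p is not given for these fits. DESeq2 called 0 higher and 2 lower, Cacna2d1 and Scn2a, against 6.12% and 1.16% of the 20054 genes to which it gave an adjusted p. On simulated counts DESeq2 made a larger share of false calls than edgeR, a limit on every call that DESeq2 alone makes here. With the additional limit of a log2 fold change beyond 1, edgeR again called 0 in either direction.

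With TMM, 22 of the 28 genes had a negative log2 fold change, against 47.6% of all genes tested. The median log2 fold change of the 28 genes was -0.11, against 0.009 over all genes, and it was -0.09 for the 17 calcium channel genes and -0.14 for the 11 sodium channel genes. When libraries were scaled by neuron markers 14 of the 28 were negative, a count that the 47.6% does not serve. That scaling moved the medians of the 28 genes and of all genes together, to -0.005 and 0.12. Relative to the void-treated mice, the median over the 28 genes was 0.02, -0.14, 0.06, 0.04 and -0.01 on the log2 scale in the void-treated mice and -0.21, -0.11, -0.21, -0.14 and 0.02 in the DHT-treated mice. The groups overlapped, with DHT replicates 2 and 6 within the void range, whose lowest value was that of void replicate 5. The median log2 fold change was -0.15 without void replicate 5, -0.15 without DHT replicate 6 and -0.12 without DHT replicate 2.

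For 0 of the 28 genes did the groups separate fully, against 0.88% of all genes with every DHT-treated mouse below and 5.39% with every DHT-treated mouse above. The plot of fold changes shows the interval of each gene.

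**Figure D1:**
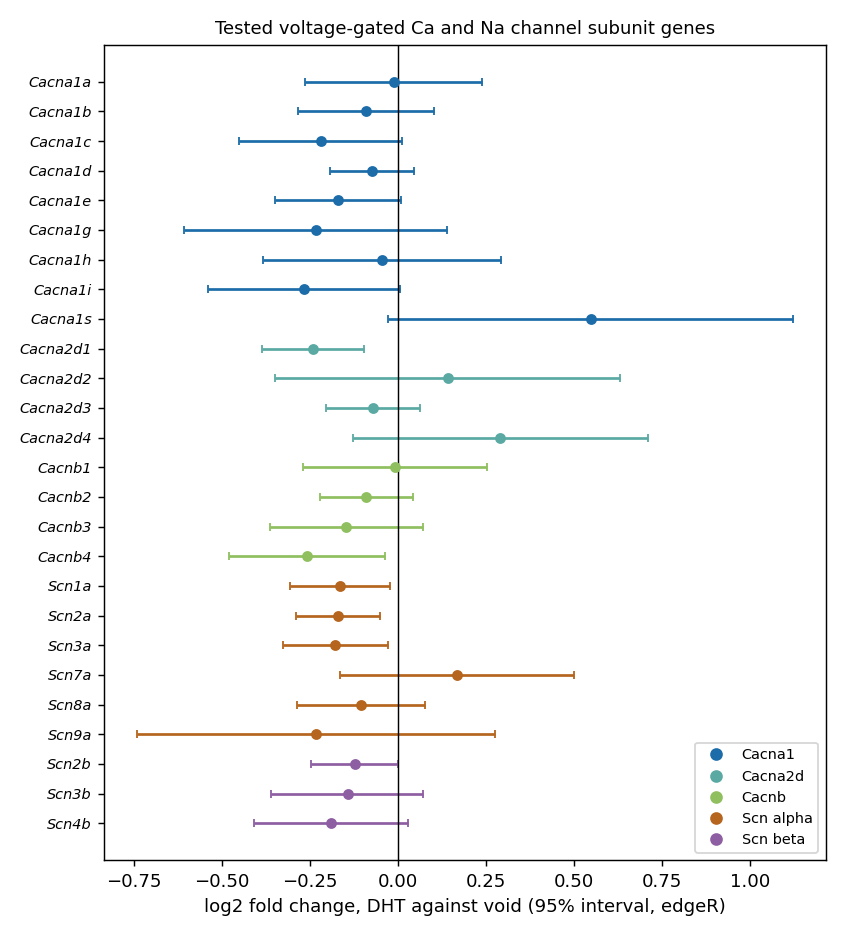
Log2 fold change, DHT against void, for 26 tested channel genes, coloured by subfamily. Points are edgeR estimates and bars are 95% intervals. Of the 26 estimates 22 are negative (14 under scaling by neuron markers, not drawn), and the interval is widest for Cacna1s, from -0.029 to 1.12.

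Neuronal markers had fold changes of the same sign as most channel genes. All 10 genes of a neuron list had a negative log2 fold change, against 47.6% of all genes, with a median of -0.10. With edgeR 0 were called and 2 were lower at an unadjusted p under 0.05, against 4.22% of all genes, and DESeq2 called 0. Their summed level was 7450, 8270, 7420, 7630 and 7960 CPM with void and 6460, 7320, 6950, 7220 and 7260 CPM with DHT, with Map2 the most abundant gene. For this sum all 5 DHT-treated mice were below all 5 void-treated mice, a difference that was not tested. Eno2, Thy1 and Rbfox3 were highest of the 10 mice in DHT replicate 6. For 0 of the 10 neuron markers did the groups separate fully, against 0.88% of all genes with every DHT-treated mouse below. When libraries were scaled by these markers in place of TMM, the median of the channel genes was -0.005 and 14 of 28 were negative, while the median of all genes moved to 0.12. Under that scaling the log2 fold changes of Cacna2d1, Scn2a, Cacnb4 and Cacna1i were -0.13, -0.06, -0.14 and -0.17, and those of Cacna1e, Cacnb3, Scn1a and Scn3a lay between -0.07 and -0.04. CPM is a share of all reads counted. In bulk tissue, fewer neurons, less RNA per neuron and more RNA from other cells cannot be told apart, and none was tested.

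Markers of excitatory neurons had a median log2 fold change of 0.04 and those of inhibitory neurons -0.12, with 0 of 5 and 0 of 7 called by edgeR and by DESeq2, and with 0 at an unadjusted p under 0.05. Marker lists of other cells differed in sign. Of 8 microglia markers 6 were called higher by edgeR, with a median of 0.65, and of 10 choroid plexus markers 5, with a median of 2.18. Of all genes 5.22% were called higher. At an unadjusted p under 0.05, 7 of the microglia and 10 of the choroid plexus markers were higher, against 13.1% of all genes. Astrocyte markers had a median of 0.15, with 1 of 8 called higher by edgeR and 4 higher at an unadjusted p under 0.05. Oligodendrocyte markers had a median of 0.19, with 0 of 6 called by edgeR or DESeq2 and 2 higher at an unadjusted p under 0.05. Markers of endothelial cells, of pericytes and smooth muscle and of meningeal fibroblasts had medians of -0.03, -0.07 and -0.18, with 0 called by edgeR or DESeq2 and 0 at an unadjusted p under 0.05. The 3 ependymal markers had a median of 0.59, with 0 called by edgeR or DESeq2 and 1 higher at an unadjusted p under 0.05. They summed to 15.6 ± 7.08 CPM with void and 28.4 ± 4.5 CPM with DHT (SD, n = 5 each). The 4 markers of oligodendrocyte precursors had a median of 0.08, with 0 called by edgeR or DESeq2.

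The summed level of the choroid plexus markers was 911, 113, 1830, 438 and 119 CPM with void and 3000, 2100, 2130, 2240 and 2470 CPM with DHT, with Ttr the most abundant gene. Void replicate 9 was close to the DHT-treated mice, and void replicates 5 and 11 were far below. The microglia markers summed to 418, 426, 421, 491 and 420 CPM with void and 877, 594, 626, 699 and 647 CPM with DHT, and the groups did not overlap. No marker of any of these lists was at 0 in all mice. The part of cell composition in the channel values was not tested beyond the scaling by neuron markers and a fit with choroid plexus content as a covariate, in which 22 of 28 channel genes were negative, 2 of them at an unadjusted p under 0.05. That fit called 0 higher and 0 lower of all 17622 genes. The choroid plexus sum itself differed between groups, with every DHT-treated mouse above every void-treated mouse. A call lost in that fit is therefore not particular to a gene. In that fit no channel gene had an adjusted p below 0.626 from edgeR. The log2 fold changes were -0.46, -0.44 and -0.46 for Cacna1c, Cacna1g and Cacna1i, -0.14 for Cacna2d1 and 0.0165 for Cacna2d4.

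The alpha1 subunits form the calcium pore and define the current type. Per kb of exon, Cacna1e, which encodes the R-type channel, was the highest in both groups at 25.8 ± 2.85 CPM per kb with void against 22.9 ± 1.67 with DHT (mean ± SD, n = 5 each). Cacna1a (P/Q-type) followed at 17.9 ± 2.32 and 17.7 ± 2.88, and Cacna1b (N-type) at 15.4 ± 1.49 and 14.4 ± 1.66 (SD, n = 5 each). These 3 genes made up 26.1%, 18% and 15.5% of the alpha1 sum per kb with void and 25.3%, 19.4% and 15.9% with DHT. Cacna1a and Cacna1b differed by about their spread, and the order of the 3 did not differ between groups.

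Next came the T-type gene Cacna1h at 11 ± 2.12 CPM per kb with void, the L-type gene Cacna1c at 9.01 ± 1.45 and the T-type gene Cacna1i at 8.74 ± 1.07 (SD, n = 5 each), whose ranges overlap. Cacna1g, the remaining T-type gene, was at 6.12 ± 0.775 and the L-type gene Cacna1d at 5.21 ± 0.233 CPM per kb (SD, n = 5 each). Cacna1s, best known from skeletal muscle, was at 0.0749 ± 0.0288 with void against 0.111 ± 0.0204 with DHT (mean ± SD, n = 5 each). The summed level of the alpha1 genes was 99.2 ± 11.1 CPM per kb with void against 91.0 ± 10.9 with DHT (mean ± SD, n = 5 each), a difference smaller than the spread between mice.

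**Figure D2:**
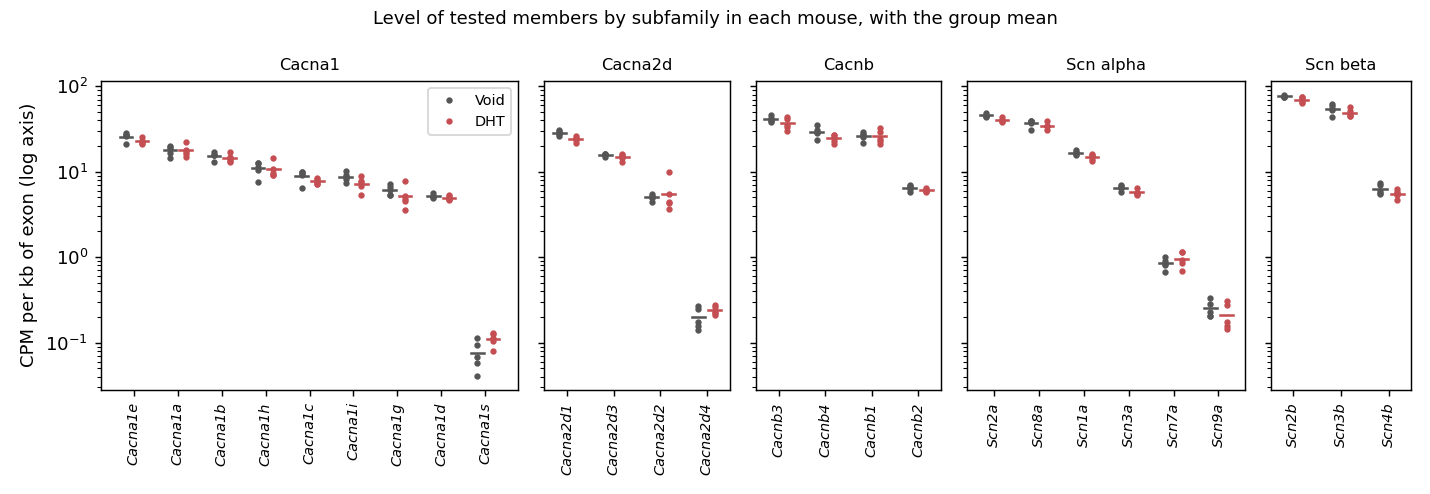
Level of 26 tested genes in CPM per kb of exon on a log axis, by subfamily, with genes ordered by their void mean. Each point is a mouse and each line the mean of 5 mice. Cacna1e, Cacna2d1, Cacnb3 and Scn2a lead their subfamilies in both groups, at 25.8, 28.6, 41.1 and 45.7 CPM per kb with void.

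Cacna1e (ENSMUSG00000004110) was at 671, 530, 662, 674 and 722 CPM in void-treated mice and at 585, 584, 552, 531 and 642 CPM in DHT-treated mice. Void replicate 5 was the lowest of the 10 mice, and the other 4 void-treated mice were above all 5 DHT-treated mice. Its fold change in edgeR was -0.17 (log2), with a standard error of 0.08, a 95% interval of -0.35 to 0.0084 and an adjusted p of 0.318.

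Cacna1i (ENSMUSG00000022416) had the most negative log2 fold change of the 28 genes. It was at 86.5, 73.4, 101, 89.5 and 80.1 CPM with void and at 52.1, 76.8, 67.5, 74.5 and 87.1 CPM with DHT. DHT replicates 1 and 3 were below all void-treated mice, and the other 3 lay within the void range. On the log2 scale, edgeR put the difference at -0.27, with a standard error of 0.13, a 95% interval of -0.54 to 0.0048 and an adjusted p of 0.299.

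Cacna1s (ENSMUSG00000026407) was at 0.613, 0.383, 0.745, 0.443 and 0.270 CPM with void and at 0.847, 0.518, 0.691, 0.748 and 0.834 CPM with DHT. DHT replicates 1, 5 and 6 were above all void-treated mice, at a level that rests on few reads. The estimate from edgeR was 0.55 (log2), with a standard error of 0.26, a 95% interval of -0.029 to 1.12 and an adjusted p of 0.321, and it was -0.31 in the fit with choroid plexus content. An antisense gene shares 20% of its exon bases, and the strand setting of the counting is not given in the sources used here.

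Of the other alpha1 genes, Cacna1c was at 209, 137, 211, 202 and 195 CPM with void and at 154, 176, 152, 162 and 177 CPM with DHT. Void replicate 5 was below every other mouse, and the other 4 void-treated mice were above all DHT-treated mice. Its fold change in edgeR was -0.22 (log2), with a standard error of 0.11 and an adjusted p of 0.323, and without void replicate 5 it was -0.32 with an adjusted p of 0.0232, within a range of 0.0232 to 0.549 over the fits that each left out 1 mouse. Under scaling by neuron markers the log2 fold change of Cacna1c was -0.11 (adjusted p 0.582, edgeR). Cacna1c was set out in this way after its values were seen.

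Cacna1g had -0.23 on the log2 scale and an adjusted p of 0.563 in edgeR, with 53.8 to 72.2 CPM with void and 36.4 to 79.1 CPM with DHT, the highest value in DHT replicate 6. Without DHT replicate 6 it was -0.425 with an adjusted p of 0.0700, in a range of 0.0700 to 0.702 from edgeR over the fits that left out 1 mouse. Under scaling by neuron markers that of Cacna1g was -0.13. The log2 fold changes of Cacna1a, Cacna1b, Cacna1d and Cacna1h were -0.012, -0.09, -0.07 and -0.05, each with a 95% interval that includes 0. Each turned positive under scaling by neuron markers, which moved the median of all genes from 0.009 to 0.12. With choroid plexus content as a covariate the log2 fold changes were -0.14, -0.23, -0.12 and -0.28, with no adjusted p below 0.858 from edgeR. Without void replicate 5 those of Cacna1a, Cacna1b and Cacna1h were -0.08, -0.15 and -0.15, and without DHT replicate 6 they were -0.11, -0.16 and -0.18. Without void replicate 9 that of Cacna1b was -0.05. That of Cacna1a turned positive without void replicate 9 (0.0333) or 10 (0.0243) and without DHT replicate 2 (0.0197) or 3 (0.0181), and that of Cacna1h without void replicate 9 (0.0167) or 10 (0.0093) and without DHT replicate 2 (0.0036). Cacna1f, the L-type gene of the retina, did not have enough reads for the test, with 0 to 7 counts per mouse with void and 3 to 5 with DHT.

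The alpha2delta subunits are extracellular proteins, and those encoded by Cacna2d1 and Cacna2d2 bind gabapentin. Cacna2d1 was the highest per kb, at 28.6 ± 1.98 CPM per kb with void against 24.2 ± 1.79 with DHT (mean ± SD, n = 5 each). It made up 57.7% ± 2.56 of the subfamily sum with void against 53.9% ± 3.27 with DHT (mean ± SD, n = 5 each), and these shares overlapped between groups. Cacna2d3 followed at 15.7 ± 0.563 and 15.0 ± 1.18 CPM per kb, Cacna2d2 at 5.01 ± 0.404 and 5.52 ± 2.51, and Cacna2d4 at 0.198 ± 0.0562 and 0.240 ± 0.0287 (SD, n = 5 each). Per kb of the longest transcript, Cacna2d1 was at 47.8 and 40.5 and Cacna2d3 at 37.1 and 35.3 CPM per kb. By that length they made up 51.9% and 40.3% of the void sum.

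The summed level of the alpha2delta genes was 51.3, 50.3, 47.3, 48.7 and 50.2 CPM per kb with void and 44.5, 46.5, 45.4, 43.6 and 44.9 CPM per kb with DHT. All DHT-treated mice were below all void-treated mice, at 49.6 ± 1.55 with void against 45.0 ± 1.11 with DHT (mean ± SD, n = 5 each), and of the 5 subfamily sums it was the only 1 whose groups were apart. Cacna2d1 makes up most of this sum. The groups overlapped with library size alone (46.5 to 51.5 with void, 43.5 to 47.2 with DHT) and under scaling by neuron markers (45.8 to 51.3 and 42.0 to 51.4). This sum was set out after its values were seen, and its difference was not tested.

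Cacna2d1 (ENSMUSG00000040118) was at 376, 354, 323, 342 and 383 CPM in void-treated mice and at 302, 329, 311, 293 and 269 CPM in DHT-treated mice. DHT replicate 2 was above void replicate 9, and all other DHT-treated mice were below all void-treated mice. DHT against void, edgeR estimated -0.24 on the log2 scale, with a standard error of 0.07, a 95% interval of -0.39 to -0.10, an unadjusted p under 0.05 and an adjusted p of 0.0590, which was the lowest p of the 28 genes. DESeq2, which made more false calls on simulated counts, gave -0.27 with an adjusted p of 0.0138. Without void replicate 9 edgeR's adjusted p was 0.0357, and without DHT replicate 2 it was 0.0388, in a range of 0.0357 to 0.147 over the 10 fits that left out 1 mouse. Over the other alternatives the adjusted p ranged from 0.0138 with DESeq2 to 0.897 with edgeR and choroid plexus content as a covariate. The log2 fold change was -0.13 under scaling by neuron markers and -0.14 with that covariate.

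Cacna2d4 (ENSMUSG00000041460) was at 1.33, 1.66, 2.33, 2.55 and 1.5 CPM with void and at 2.51, 1.97, 2.60, 2.18 and 2.08 CPM with DHT. Void replicates 4, 5 and 11 were below all DHT-treated mice, and void replicates 9 and 10 were within their range. DHT against void, edgeR estimated 0.29 on the log2 scale, with a standard error of 0.19, a 95% interval of -0.13 to 0.71 and an adjusted p of 0.509. It was 0.18 without void replicate 4 and 0.0165 in the fit with choroid plexus content.

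Cacna2d2 (ENSMUSG00000010066), chosen after its values were seen, was at 39.8, 43.4, 39.4, 41.6 and 34.8 CPM with void and at 28.9, 33.9, 43.3, 35.2 and 78.4 CPM with DHT. DHT replicate 6 was far above every other mouse. On the log2 scale, edgeR put the difference at 0.14, with a standard error of 0.23 and an adjusted p of 0.831, and -0.17 without DHT replicate 6. Cacna2d3 ranged from 129 to 141 CPM with void and from 114 to 141 CPM with DHT, with -0.07 on the log2 scale and an adjusted p of 0.632 in edgeR, and its log2 value ranged from -0.135 when DHT replicate 1 was left out to -0.03 when DHT replicate 6 was. It turned to 0.0426 under scaling by neuron markers.

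The beta subunits bind the alpha1 subunit inside the cell. Cacnb3 was the highest per kb, at 41.1 ± 3.02 CPM per kb with void against 37.1 ± 5.83 with DHT (mean ± SD, n = 5 each). Cacnb4 was at 29.5 ± 4.25 and 24.7 ± 2.5 and Cacnb1 at 26.2 ± 2.81 and 26.0 ± 4.89 CPM per kb (SD, n = 5 each), and these genes traded places between groups within their spread. Cacnb2 was the lowest at 6.51 ± 0.465 and 6.11 ± 0.279 (SD, n = 5 each). Per kb of the longest transcript they did not trade places, with Cacnb1 at 34.9 and 34.7 and Cacnb4 at 32.1 and 26.9. By that length Cacnb2 was at 17.1 and 16.1, still the lowest. All 4 genes had negative log2 fold changes with TMM scaling, but those of Cacnb1 and Cacnb2 turned positive under scaling by neuron markers, and the estimate for Cacnb1 was near 0 at -0.0093.

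Cacnb3 (ENSMUSG00000003352) was at 157, 154, 184, 169 and 160 CPM with void and at 134, 143, 121, 168 and 177 CPM with DHT. DHT replicates 1, 2 and 3 were below all void-treated mice, and DHT replicates 5 and 6 were within the void range. Its fold change in edgeR was -0.15 (log2), with a standard error of 0.10, a 95% interval of -0.36 to 0.07 and an adjusted p of 0.520. With 1 mouse left out it ranged from -0.23 (DHT replicate 5) to -0.10 (void replicate 9).

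Cacnb4 (ENSMUSG00000017412), the gene disrupted in the lethargic mouse, was at 264, 317, 211, 255 and 275 CPM with void and at 208, 241, 244, 221 and 191 CPM with DHT. Void replicate 9 lay within the DHT range, and the other void-treated mice were above all DHT-treated mice. Its fold change in edgeR was -0.26 (log2), with a standard error of 0.10, a 95% interval of -0.48 to -0.04, an unadjusted p under 0.05 and an adjusted p of 0.200. It was 0.06 in the fit with choroid plexus content. A processed transcript on the opposite strand shares 16% of its exon bases.

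Cacnb2 ranged from 77.4 to 92.4 CPM with void and from 77.3 to 86.2 CPM with DHT, with -0.09 on the log2 scale and an adjusted p of 0.518 in edgeR, and with 0.0211 under scaling by neuron markers. Cacnb1 ranged from 99.3 to 133 CPM and from 95.6 to 148 CPM. The summed level of the beta genes was 103 ± 1.92 CPM per kb with void against 93.9 ± 9.26 with DHT (mean ± SD, n = 5 each). DHT replicates 1, 2 and 3 were at 85.4, 93.0 and 84.4 CPM per kb and DHT replicates 5 and 6 at 102 and 105, in the void range.

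Of the sodium channel alpha subunits, Scn2a and Scn8a are the main pore genes of principal neurons, and Scn1a is prominent in inhibitory neurons. Scn2a was the highest per kb, at 45.7 ± 1.90 CPM per kb with void against 40.6 ± 2.24 with DHT, followed by Scn8a at 37.4 ± 3.79 and 34.8 ± 3.12 (SD, n = 5 each). Scn1a was at 16.7 ± 0.879 and 14.9 ± 1.20 and Scn3a, a gene prominent in development, at 6.5 ± 0.489 and 5.75 ± 0.421 (SD, n = 5 each). Shares of the alpha sum were 42.4% and 41.5% for Scn2a, 34.6% and 35.5% for Scn8a and 15.5% and 15.2% for Scn1a, differences smaller than the spread between mice. The remaining genes were each under 1 CPM per kb.

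Scn2a (ENSMUSG00000075318) was at 595, 560, 568, 566 and 617 CPM in void-treated mice and at 487, 563, 515, 504 and 513 CPM in DHT-treated mice. DHT replicate 2 was above void replicate 5, and all other DHT-treated mice were below all void-treated mice. On the log2 scale, edgeR put the difference at -0.17, with a standard error of 0.05, a 95% interval of -0.29 to -0.05, an unadjusted p under 0.05 and an adjusted p of 0.101. DESeq2 gave -0.20 with an adjusted p of 0.0200, a call subject to the same limit on DESeq2. Without DHT replicate 2 edgeR's adjusted p was 0.0479, in a range of 0.0479 to 0.216 over the fits that left out 1 mouse. Over the other alternatives the adjusted p ranged from 0.0200 with DESeq2 to 0.882 with edgeR and choroid plexus content as a covariate. Under scaling by neuron markers the log2 fold change was -0.06.

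Scn1a (ENSMUSG00000064329) was at 191, 182, 174, 200 and 184 CPM with void and at 147, 175, 179, 171 and 158 CPM with DHT. DHT replicates 2 and 3 were above void replicate 9, and the other DHT-treated mice were below all void-treated mice. The estimate from edgeR was -0.16 (log2), with a standard error of 0.06, a 95% interval of -0.31 to -0.02, an unadjusted p under 0.05 and an adjusted p of 0.197.

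Scn3a (ENSMUSG00000057182) was at 85.2, 71.8, 80.6, 79.8 and 87.7 CPM with void and at 69.6, 80.7, 69.2, 67.3 and 71.2 CPM with DHT. DHT replicate 2 lay within the void range, and the other 4 DHT-treated mice were below all void-treated mice. DHT against void, edgeR estimated -0.18 on the log2 scale, with a standard error of 0.07, a 95% interval of -0.33 to -0.03, an unadjusted p under 0.05 and an adjusted p of 0.189.

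Scn8a ranged from 486 to 627 CPM with void, with void replicate 5 the lowest, and from 490 to 626 CPM with DHT. The estimate from edgeR was -0.10 (log2), with a standard error of 0.08 and an adjusted p of 0.605, and it turned to 0.0038 under scaling by neuron markers. Without void replicate 5 it was -0.17 (adjusted p 0.218, edgeR) and without DHT replicate 6 it was -0.16 (0.355), in a range of 0.218 to 0.766 over the fits that left out 1 mouse. Void replicate 5 was at 486 CPM and the other void-treated mice at 591 to 627 CPM. DHT replicate 6 was at 626 CPM and the other DHT-treated mice at 490 to 548 CPM, so that the groups overlapped through these mice.

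**Figure D3:**
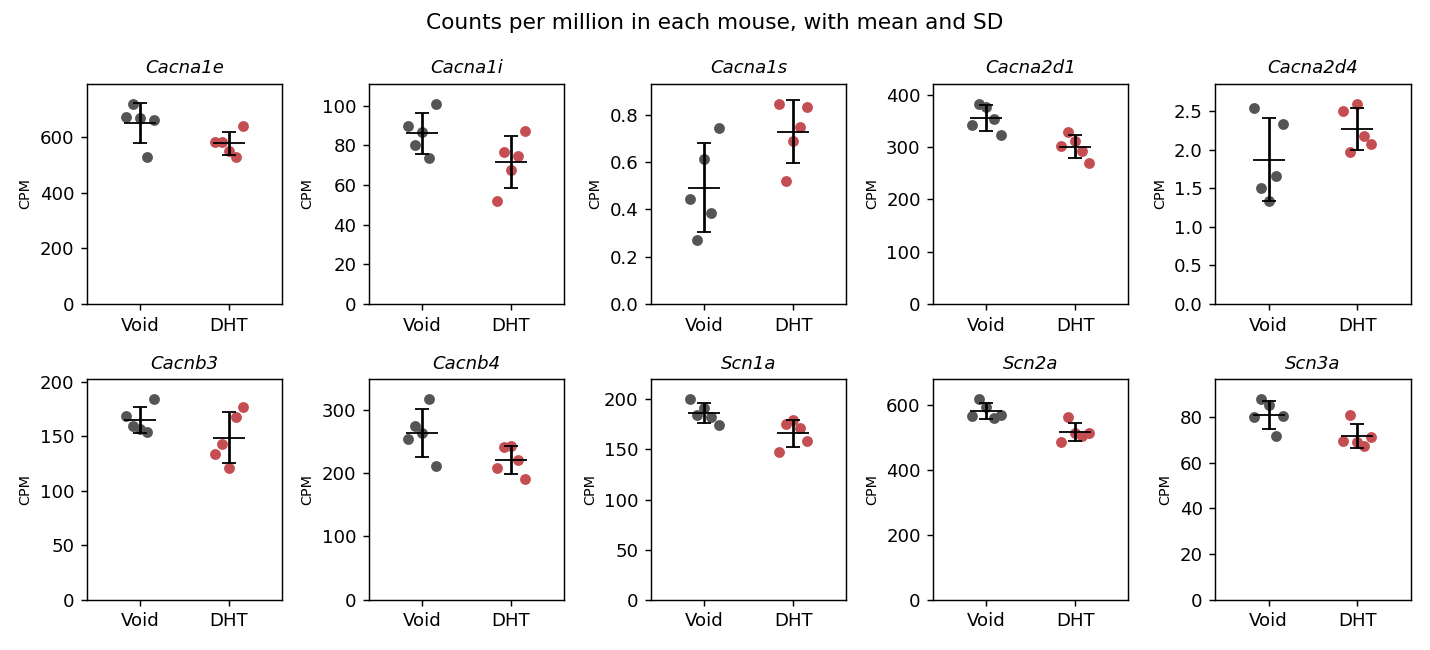
CPM in each mouse for 10 channel genes, with the group mean and SD as lines. In each of the 10 panels the groups overlap, and for Cacna2d1 and Scn2a only DHT replicate 2 lies within the void range.

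Scn7a, which encodes a salt-sensing relative of the voltage-gated channels, was at 4.97 to 7.42 CPM with void and 5.08 to 8.40 CPM with DHT, with 0.17 on the log2 scale and an adjusted p of 0.663 in edgeR. It was 0.07 without void replicate 11 or DHT replicate 3, and -0.024 with choroid plexus content as a covariate. Scn9a, known from pain-sensing neurons, was at 2.64 to 4.28 CPM and 1.86 to 3.92 CPM, with -0.23 on the log2 scale and an adjusted p of 0.697 in edgeR. It was -0.11 without void replicate 5, and leaving out DHT replicate 1, 2, 3 or 6 gave -0.155, -0.40, -0.37 or -0.14. The fit with choroid plexus content gave 0.0025. Scn4a, of skeletal muscle, and Scn10a and Scn11a, of sensory neurons, were not tested for want of reads. Each had at most 7 counts in any mouse, and Scn10a was at 0 counts in 4 of 10 mice, Scn11a in 3 and Scn4a in 1.

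Of the beta subunits of sodium channels, Scn2b was at 76.2 ± 1.70 CPM per kb with void against 70.0 ± 5.13 with DHT (mean ± SD, n = 5 each). Scn3b was at 54.4 ± 7.23 and 49.2 ± 5.22 and Scn4b, known for resurgent current, at 6.31 ± 0.842 and 5.53 ± 0.577 (SD, n = 5 each).

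Scn2b had 348 to 368 CPM with void and 297 to 350 CPM with DHT, and edgeR gave -0.12 on the log2 scale with a standard error of 0.06 and an adjusted p of 0.295. With DESeq2's size factors in place of TMM, the groups for Scn2b no longer overlapped, and it was the only 1 of the 28 genes for which this was so, against 1.28% of all genes with every DHT-treated mouse below and 4.82% with every DHT-treated mouse above under that scaling. The groups for Scn2b overlapped with TMM, with library size alone and under scaling by neuron markers, where its log2 fold change was -0.0145 (adjusted p 0.906, edgeR, in a range of 0.0839 to 0.906 over all alternatives). The log2 fold changes of Scn3b and Scn4b were -0.14 and -0.19, with adjusted p values of 0.530 and 0.378 from edgeR. With 1 mouse left out, that of Scn3b ranged from -0.235 (DHT replicate 1) to -0.11 (void replicate 4). That of Scn4b ranged from -0.27 (DHT replicate 1) to -0.13 (void replicate 10). Under scaling by neuron markers the log2 fold changes of Scn3b and Scn4b were -0.03 and -0.08.

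By chromosome, 8 of the 32 genes are on chromosome 2 and 7 on chromosome 9. On chromosome 2, Scn3a and Scn2a are next to each other, and Scn1a, Scn9a and Scn7a follow one another among protein-coding genes. On chromosome 9, Scn10a and Scn11a are neighbours, as are Scn2b and Scn4b. In these runs Scn3a, Scn2a and Scn1a had log2 fold changes of -0.18, -0.17 and -0.16, and Scn9a and Scn7a had -0.23 and 0.17 at far lower levels.

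Reads of 100 bases can match relatives of a gene. In GENCODE M21 transcripts, 27 of the 32 genes shared no stretch of 100 bases with another gene. Scn1a, Scn2a, Scn3a and Scn9a shared 0.876%, 1.03%, 2.22% and 1.44% of their stretches with each other, so that how the authors counted such reads could move their values slightly, most of all at the low level of Scn9a. Exon bases overlapped a gene on the opposite strand for 9 of the 32 genes, of which Cacna1s and Cacnb4 shared over 5% with a single such gene. Cacnb2 shared 4.67%, 1.81% and 0.839% with 3 such genes.

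Most of the tested channel genes are long. The median exon length was 9.81 kb for the 28 tested genes and 4.09 kb for all tested genes with a length, and 21 of the 28 lay among the longest 20% of genes. The median log2 fold change over all genes was 0.06 in the shortest and -0.03 in the longest 20%. With offsets for exon length, 23 of the 28 genes were negative, their median was -0.12, the median of all genes was -0.07, and Cacna2d1 had an adjusted p of 0.0452 from edgeR.

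Promoter sequences upstream of the start were searched for the androgen receptor hexamer AGAACA and the nuclear receptor hexamer AGGTCA, on both strands, in the RefSeq set of build GRCm38.p6. Of the 32 genes, 24 had an entry, with 34 starts. AGAACA or its reverse complement TGTTCT was found in the 250 bases before 7 of these 34 starts (20.6%), against 16.1% of all 32851. AGGTCA or TGACCT was found before 2 (5.88%), against 14.0% of all. The hexamers differ in their letters and were counted apart, and a match describes letters and not a binding site.

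The upstream sequences of Cacna2d1 and Scn2a, the genes with the lowest p, are shown as the 250 bases before each start, with a match to either hexamer in capitals. Cacna2d1 is at chr5:15934441-15934690 on the plus strand, and Scn2a has starts at chr2:65620519-65620768 and chr2:65668436-65668685 on the plus strand. The Cacna2d1 window is 82.4% G and C, and the Scn2a windows are 29.6% and 53.2%. Only the downstream Scn2a window of these 3 holds a match.
Cacna2d1: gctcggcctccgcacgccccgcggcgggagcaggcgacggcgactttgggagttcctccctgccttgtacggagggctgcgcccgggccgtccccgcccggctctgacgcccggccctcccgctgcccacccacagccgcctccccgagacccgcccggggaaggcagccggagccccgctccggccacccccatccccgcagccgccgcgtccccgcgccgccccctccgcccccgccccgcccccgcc
Scn2a, upstream start: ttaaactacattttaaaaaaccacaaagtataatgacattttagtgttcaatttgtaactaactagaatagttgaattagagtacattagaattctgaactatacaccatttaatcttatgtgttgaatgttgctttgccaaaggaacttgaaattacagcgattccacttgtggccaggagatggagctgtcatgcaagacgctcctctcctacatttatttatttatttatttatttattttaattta
Scn2a, downstream start: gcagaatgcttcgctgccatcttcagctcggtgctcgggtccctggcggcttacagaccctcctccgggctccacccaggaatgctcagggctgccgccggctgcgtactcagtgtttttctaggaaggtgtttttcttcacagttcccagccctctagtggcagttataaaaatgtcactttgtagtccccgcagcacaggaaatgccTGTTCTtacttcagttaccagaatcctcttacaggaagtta

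Genes whose products bind or anchor calcium channels were taken as a list of 32, of which 31 were tested. In edgeR 0 were called higher and 1 lower, Akap5, against 5.22% and 0.261% of all genes. At an unadjusted p under 0.05, 3 were higher and 4 lower, against 13.1% and 4.22%. DESeq2 called 0 higher and 3 lower, against 6.12% and 1.16%. The median log2 fold change of the list was -0.06, with 20 of 31 negative, and 0.05 under scaling by neuron markers.

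Akap5 (ENSMUSG00000021057), which anchors kinases and calcineurin beside L-type channels, was at 139, 127, 128, 138 and 143 CPM with void and at 106, 124, 112, 107 and 115 CPM with DHT. All DHT-treated mice were below all void-treated mice. Akap5 fell by 0.26 (log2) with a standard error of 0.06 and an adjusted p of 0.0245 in edgeR. Over the other alternatives its adjusted p lay between 0.000925 with DESeq2 and 0.780 with edgeR. Under scaling by neuron markers its log2 fold change was -0.15 and the call was lost (adjusted p 0.234, edgeR). With choroid plexus content as a covariate it was -0.215, also not called (adjusted p 0.780, edgeR), in a fit that called 0 of all genes. With 1 mouse left out, the adjusted p from edgeR was 0.0142 to 0.0702. The call was lost without void replicate 4 (0.0699), 10 (0.0667) or 11 (0.0637) and without DHT replicate 1 (0.0702), 3 (0.0508) or 5 (0.0543), adjusted p values from edgeR.

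The next genes by p were Rims2 (-0.19), Cacng2 (-0.21), Gem (0.41) and Rims1 (-0.14), log2 fold changes with adjusted p values of 0.0810, 0.117, 0.119 and 0.167 from edgeR. Under scaling by neuron markers they were -0.08, -0.10, 0.53 and -0.03. Rims1 and Rims2 encode active zone scaffolds, Cacng2 the AMPA receptor subunit stargazin, and Gem a GTPase that binds calcium channel beta subunits. Gem was at 1.82, 2.05, 2.14, 1.96 and 1.86 CPM with void and at 2.79, 2.66, 3.14, 2.21 and 2.17 CPM with DHT, with the groups fully apart.

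Of 19 genes of sodium channel partners, 17 were tested, with 0 called in either direction by edgeR. At an unadjusted p under 0.05, 0 were higher and 4 lower, against 13.1% and 4.22% of all genes. DESeq2 called 0 higher and 2 lower, against 6.12% and 1.16%. The median log2 fold change of these partners was -0.11, with 14 of 17 negative, and -0.015 under scaling by neuron markers. Fgf11, an intracellular FGF homologous factor, was at 44.4, 40.6, 42.7, 42.8 and 42.3 CPM with void and at 27, 37.8, 37.4, 33.5 and 34.9 CPM with DHT. All DHT-treated mice were below all void-treated mice for Fgf11, with a log2 fold change of -0.32 and an adjusted p of 0.0503 from edgeR. Over the edgeR fits that left out 1 mouse the adjusted p ranged from 0.0383 to 0.122. Over the other alternatives it ranged from 0.00479 with DESeq2 to 0.742 with edgeR. The adjusted p was under 0.05 in edgeR when DHT replicate 1 (0.0476), 2 (0.0383) or 3 (0.0449) was left out. It was also under 0.05 in edgeR with DESeq2 size factors (0.0356), a filter of 1 count in total (0.047) and exon length offsets (0.0229). Under scaling by neuron markers the log2 fold change of Fgf11 was -0.21 (adjusted p 0.199, edgeR).

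Unc80, a subunit of the NALCN leak channel complex, Nedd4l, a ubiquitin ligase of sodium channels, Ank3, which gathers sodium channels at the axon initial segment, and Fgf12 followed by p, with log2 fold changes of -0.17, -0.17, -0.16 and -0.20, the last -0.13 without void replicate 5. Under scaling by neuron markers these were -0.06, -0.06, -0.05 and -0.09, and that of Fgf12 turned to 0.0703 with choroid plexus content as a covariate. Their adjusted p values from edgeR with TMM were 0.150, 0.270, 0.270 and 0.314.

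Voltage-gated potassium channel alpha subunits, the family most like these channels, gave 0 called higher and 2 lower of 37 tested in edgeR, against 5.22% and 0.261% of all genes. At an unadjusted p under 0.05, 0 were higher and 11 lower, against 13.1% and 4.22%. DESeq2 called 0 higher and 5 lower, against 6.12% and 1.16%. The median log2 fold change of this family was -0.15 (-0.05 under scaling by neuron markers), with 30 of 37 negative, beside -0.11 and 22 of 28 for the calcium and sodium channel genes, and the difference between the families was not tested. Kcna2 was at 400, 422, 413, 421 and 413 CPM with void and at 369, 385, 345, 344 and 360 CPM with DHT, and fell by 0.20 on the log2 scale (adjusted p = 0.0349, edgeR). For Kcna2 all DHT-treated mice were below all void-treated mice. With 1 mouse left out, the adjusted p of Kcna2 from edgeR was 0.0249 to 0.0904, with the call held only without DHT replicate 2 and lost without void replicate 4 (0.0644), 5 (0.0620), 9 (0.0564), 10 (0.0904) or 11 (0.0682) and without DHT replicate 1 (0.0642), 3 (0.0633), 5 (0.0621) or 6 (0.0556). Over the other alternatives the adjusted p ranged from 0.000647 to 0.780 for Kcna2, with edgeR and DESeq2. Under scaling by neuron markers its log2 fold change was -0.09 and the call was lost (adjusted p 0.449, edgeR). With choroid plexus content as a covariate it was -0.178, also not called (adjusted p 0.780, edgeR), in a fit that called 0 of all genes.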

How the data were processed

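Hippocampal mRNA libraries (KAPA mRNA HyperPrep) were sequenced as paired reads of 100 bases. The authors trimmed and filtered reads with HTStream, aligned them with STAR 2.7.10b and deposited raw counts per gene, with no normalization. Their methods name mm10 and the submitters' processing notes list mm39 and GRCm39, so no coordinates are given on the build of the counts, and those of promoter windows are on RefSeq's GRCm38.p6. The annotation release, the strand setting and the handling of reads with several matches are not given in the sources used here.

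Counts were compared in R 4.3.3 with edgeR 4.0.16 (TMM, its expression filter by group, quasi-likelihood test, Benjamini-Hochberg over 17622 genes) and, as an alternative, DESeq2 1.42.0. The study's methods compared the groups with DESeq2. CPM per mouse was computed from counts and TMM library sizes. The standard error was taken as the size of the log2 fold change over the square root of F. Names and exon lengths came from GENCODE M21, which named 51948 of 56884 identifiers. The tests were tested on simulated data, where a larger share of DESeq2's calls than of edgeR's was false. Pairs of libraries within a group differed by more than sampling noise (chi-square per degree of freedom 9.12 to 49.4 over 20 pairs). This sets the spread between different mice against counting error only, and nothing is concluded from it.

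Full values per mouse were given for genes with an adjusted p under 0.05, with groups apart or with an unadjusted p under 0.05, for the 3 largest fold changes in each direction and for the highest level per kb of each subfamily. Of partner genes, those called and the 5 of lowest p in each list were named. Cacna1c, Cacna2d2 and Kcna2 were set out beyond that rule. Values of some genes that the rule takes in are not reported here. The members and lists were chosen with earlier results of these data known. Alternatives covered count model, scaling, filters, choroid plexus content, exon length, call rule and leaving out each mouse. Nalf1 and Nalf2 had no match among the symbols, and Cacng1 had too few reads.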

Additional observations from a re-analysis of the deposited data

Results flagged for a closer look

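In 84 groups of 5 mice, over 26 tested channel genes and 16 marker lists, the gap between the most extreme mouse and its nearest neighbour was compared with the range of the group. It passed the 95% critical ratio in 6 groups, where chance gives about 4.2. Void replicate 5 was the lowest of its group for Cacna1c (ratio 0.785), Scn8a (0.741) and the summed markers of hippocampal subfields (0.746). DHT replicate 1 was the highest for astrocyte markers (0.817), void replicate 10 for microglia markers (0.891) and DHT replicate 3 for markers of pericytes and smooth muscle (0.725). Genes of 1 list share their mice, so these ratios are not independent, and the cause was not tested.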

How the results depend on the processing

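With edgeR, 0 channel genes were called higher under every alternative run. The count called lower was 0 with TMM and stayed 0 under the other scalings, both filters, the choroid plexus covariate and the limit on the fold change. It was 2 with DESeq2, 1 with exon length offsets and 5 at an unadjusted p under 0.05, and between 0 and 2 when each mouse was left out (1 without void replicate 5, 1 without void replicate 9 and 2 without DHT replicate 2). The count lower at an unadjusted p under 0.05 was 0 with neuron marker scaling and 2 with the choroid plexus covariate. It was 9 with DESeq2 size factors or exon length offsets and 10 of 32 with DESeq2. These settings moved the median of all genes from 0.009 to -0.018, -0.07 and -0.016. The share of all genes at that p is not given for them, so the counts are not set against the 5 with TMM. The median log2 fold change of the channel genes was -0.005 under scaling by neuron markers, which moved the median of all genes from 0.009 to 0.12, and lay between -0.15 and -0.10 when each mouse was left out. The number of negative genes, a count added after seeing the data, was 14 of 28 under that scaling and 19 to 25 when each mouse was left out. With DESeq2 size factors, 1 gene had groups fully apart, in a count also added after seeing the data. Over all genes, the calls were 920 higher and 46 lower with edgeR, 1228 and 233 with DESeq2, 1660 and 9 with neuron marker scaling, 668 and 138 with exon length offsets and 0 and 0 with the choroid plexus covariate.

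Log2 fold changes turned positive under neuron marker scaling for Cacna1a (0.0944), Cacna1b (0.0145), Cacna1d (0.0399), Cacna1h (0.0584), Cacna2d3 (0.0426), Cacnb1 (0.0911), Cacnb2 (0.0211) and Scn8a (0.0038). That scaling raised genes at large, with the median of all genes moved from 0.009 to 0.12, so these turns are not particular to these genes. With the choroid plexus covariate the sign turned for Cacna1s (-0.31), Cacnb4 (0.0643), Scn7a (-0.024), Scn9a (0.0025) and Fgf12 (0.0703). With 1 mouse left out, values ranged from -0.11 to 0.0333 for Cacna1a, from -0.18 to 0.0167 for Cacna1h, from -0.17 to 0.22 for Cacna2d2 and from -0.11 to 0.0364 for Cacnb1. The cause was not tested. Akap5 and Kcna2 were not called with neuron marker scaling or with the choroid plexus covariate, under which 0 of all genes were called. For Kcna2 the call was also lost with a filter of 1 count in total, and each of the genes lost its call without some single mice. With the choroid plexus covariate their log2 fold changes were -0.215 and -0.178 against -0.26 and -0.20, and under neuron marker scaling -0.15 and -0.09. Of the 5 subfamily sums per kb, 1 had groups fully apart with TMM, DESeq2 size factors or the longest transcript and 0 with library size alone or neuron marker scaling, a count added after seeing the data. Levels per kb by the longest transcript moved beyond 1 SD for 19 of 32 genes, with the same leading gene in each subfamily.

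No paired analysis was possible because replicate number 5 is the sole number found in both groups. Genes at a few CPM or less, such as Cacna1s, rest on few reads.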
